A study of Mus musculus with 36 samples.

Results

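The comparison described here asks whether the effect of a genotype on the mouse liver was the same in animals without food as in fed animals given the β3-adrenergic agonist CL316243. It is a difference of differences: the AAKO minus CTRL difference of the fasted groups, minus the AAKO minus CTRL difference of the CL316243 groups. It uses 24 of the series' 36 arrays, chosen by sample title, with 6 arrays in each of 4 groups of the first experiment. Of 24097 genes tested, 9631 fell into 4 classes: genotype differences of opposite sign in the 2 conditions (750 genes), in the fasted condition only (4719), after CL316243 only (1064), or of the same sign in both (3098).

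White fat of AAKO mice lacks the triglyceride lipase ATGL (gene Pnpla2), and CTRL mice are their controls. The promoter that drove the deletion is not given in the sources used here. All mice were C57Bl/6J males under a light and dark cycle, killed at ZT16 in the dark phase, and their livers were profiled. The CTRL fasted and AAKO fasted groups went without food for 24 h and carry the treatment label ctrl; whether they received vehicle is not given in the sources used here. The CTRL CL316243 and AAKO CL316243 groups had food and received a single gavage of 3 mg/kg CL316243 at ZT10 in carboxymethyl cellulose. Each array holds 1 liver sample, labelled with Cy3 from 200 ng of RNA, and the labels give no pooling. The 2 genotype differences share no array, and anything that a condition did equally in both genotypes cancels.

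ATGL starts the breakdown of stored triglyceride in fat cells, and fasting and β3-adrenergic agonists both release fatty acids from fat through it. The liver takes up those fatty acids, oxidises them and makes ketone bodies, and fatty acids activate the nuclear receptor PPARα, which drives these pathways. Fasting and a β3 agonist in a fed animal share the release of fat but differ in food intake, glucose, insulin, glucagon and feeding time, which also set the liver clock and lipid synthesis.

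Between 33130 and 37200 probes (58.5% to 65.7%) were well above background on each of the 24 arrays. The first principal component, with 46.0% of the variance, separated the conditions and, when fasted, also the genotypes. AAKO CL316243 arrays scored 34.7 to 52.5 on it and CTRL CL316243 arrays 51.8 to 59.9. CTRL fasted replicate 2 stood apart: it scored -62.3 on that component, against -4.90 to 6.11 for the other CTRL fasted arrays and -93.1 to -86.0 for AAKO fasted. It was kept, and class counts, and list counts and calls that it changes by much, are also given without it. The labels name 2 wash batches, each with 2 to 4 arrays of every group, and wash batch is a term of the fit. The 8 hepatocyte markers, such as Alb and Ttr, were well above background on all 24 arrays, with median genotype differences of -0.08 when fasted and 0.05 after CL316243. Of these, Tdo2 (0.58) was higher and Ttr (-0.45), Apoa1 (-0.40) and Alb (-0.12) lower in AAKO when fasted, 2 were higher after CL316243, and the differences of differences of Apoa1 (-0.52) and Ttr (-0.30) were called. Since the deletion was made in fat, the level of Pnpla2 in liver does not check the genotype labels. In liver, Pnpla2 was 2.45-fold higher in AAKO when fasted and 1.57-fold higher after CL316243, and the difference between these was called only on leaving out CTRL fasted replicate 2 or AAKO CL316243 replicate 2 (adjusted p = 0.0615 with all arrays). In a bulk liver sample, fewer cells of a type and less RNA per cell cannot be told apart.

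Levels below are log2 signals minus each array's 75th percentile, and differences are log2 AAKO minus CTRL. A gene was called at a Benjamini-Hochberg adjusted p under 0.05 in limma, over all genes tested. In the fasted condition 11848 genes were called (49.2%), 5279 of them higher in AAKO (21.9%) and 6569 lower (27.3%). After CL316243 5929 genes were called (24.6%), 3132 higher (13.0%) and 2797 lower (11.6%). The difference of differences was called for 7666 genes (31.8%), 3209 positive (13.3%) and 4457 negative (18.5%). Over all genes tested the median fasted difference was -0.03, the median CL316243 difference 0.03 and the median difference of differences -0.07. The median absolute difference was 0.31 when fasted and 0.20 after CL316243.

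In both conditions 3848 genes were called, which is 32.5% of the fasted calls and 64.9% of the CL316243 calls. Of these, 80.5% had the same sign. Across all genes tested the fasted and CL316243 differences correlated with Pearson's r = 0.417, a description over genes, which are not independent replicates. A call in 1 condition alone was counted as particular to it only where the difference of differences was called too. This left 750 opposed genes (3.11%), of which 305 (1.27%) were higher in AAKO when fasted and lower after CL316243, and 445 (1.85%) the reverse. Fasted only were 4719 genes (19.6%), 2042 higher (8.47%) and 2677 lower (11.1%). CL316243 only were 1064 genes (4.42%), 621 higher (2.58%) and 443 lower (1.84%).

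The same direction held for 3098 genes (12.9%), 1452 higher (6.03%) and 1646 lower (6.83%). Among these the difference was larger when fasted in 713 genes and larger after CL316243 in 101, and was not called in 2284. For 1267 of the last, the 95% interval of the difference of differences lay within a fold of 1.5. Another 3281 genes were called only when fasted and 1017 only after CL316243, without a called difference between them. For 3649 of the 4719 fasted-only genes the 95% interval of the CL316243 difference lay within a fold of 1.5, as did that of the fasted difference for 796 of the 1064 CL316243-only genes. Among fed, untreated mice of the second experiment the same contrast called 19 genes, 12 of them in the 4 classes.

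The share of positive calls depends on how arrays are scaled. In the authors' deposited value table, 54.8% of called differences of differences were positive against 41.9% here. Positive were 58.6% against 40.7% of opposed genes, and 56.7% against 43.3% of fasted-only genes. Higher in AAKO were 46.7% against 58.4% of CL316243-only genes. Centring on the median put 53.4% of opposed genes on the positive side. Without CTRL fasted replicate 2 there were 909 opposed, 5229 fasted-only, 1033 CL316243-only and 3369 same-direction genes, of which 736, 4440, 926 and 3035 were in the same class with it. The larger-when-fasted genes then numbered 1082 in place of 713.

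**Figure D1:**
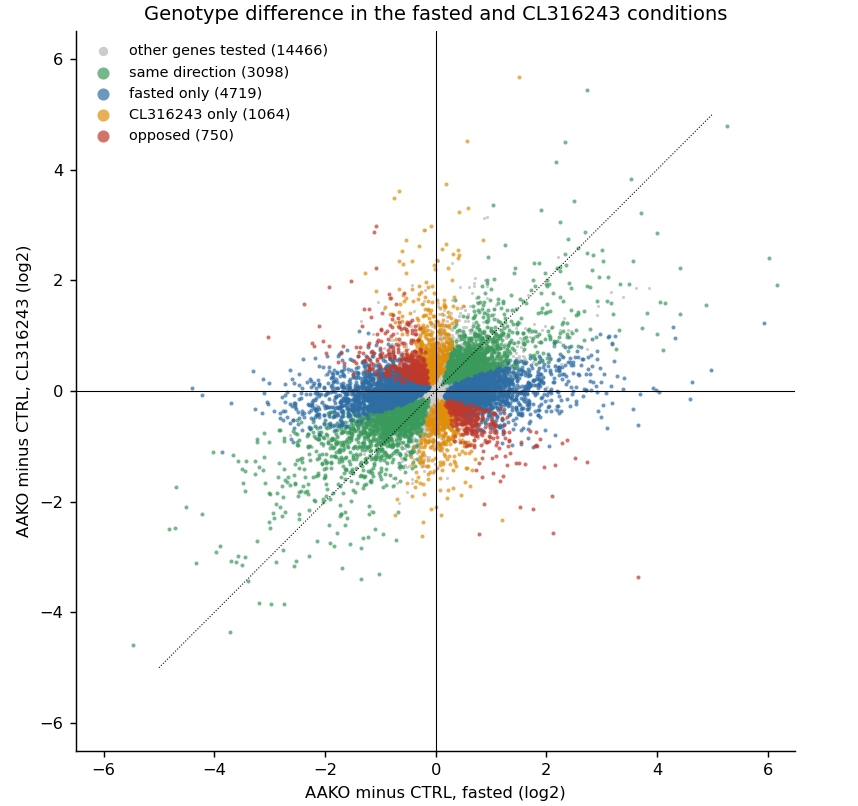
Each point is 1 of 24097 genes, with the log2 AAKO minus CTRL difference of the fasted groups on the horizontal axis and that of the CL316243 groups on the vertical axis; colours mark the 4 classes and the dotted line marks equal differences. Fasted-only genes (4719) spread along the horizontal axis, CL316243-only genes (1064) along the vertical axis, and opposed genes (750) fill the upper left and lower right.

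For each gene with a called difference of differences, the group was found whose removal left the smallest range among the means of the other 3. This was AAKO fasted for 5167 genes (67.4%), AAKO CL316243 for 1326 (17.3%), CTRL fasted for 813 (10.6%) and CTRL CL316243 for 360 (4.70%). Opposed genes divided differently, with AAKO fasted apart in 370 (49.3%) and AAKO CL316243 apart in 282 (37.6%). In 4594 of the 7666 genes (59.9%) the fasted and CL316243 means lay in the same order in both genotypes and farther apart in AAKO than in CTRL. In 418 (5.45%) they lay closer together in AAKO, and in 2654 (34.6%) their order was reversed between genotypes. These shares describe the called genes and carry no test.

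**Figure D2:**
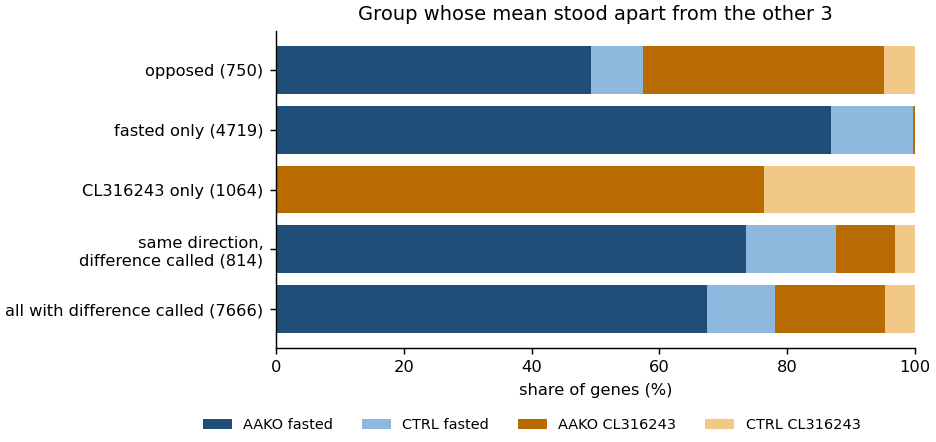
Bars give, for each class and for all genes with a called difference of differences, the percentage of genes in which each of the 4 groups was the one standing apart from the other 3 means. AAKO fasted stood apart in 86.8% of fasted-only genes, AAKO CL316243 in 76.3% of CL316243-only genes.

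Within each class and direction the 3 largest eligible genes are described, 36 in all. They were ranked by size, so their sizes are a description and not evidence for the class. Rgs16, a GTPase-accelerating protein that shortens G protein signals, had the widest opposed difference (probe at chr1:155592497-155592556, mm9). When fasted it lay between 2.52 and 5.94 (median 4.28) in CTRL and between 7.58 and 8.22 (median 7.94) in AAKO. After CL316243 it lay between 2.98 and 5.16 (median 3.87) in CTRL and between -1.43 and 2.41 (median 1.17) in AAKO. AAKO livers were thus above every CTRL liver when fasted and below every CTRL liver after CL316243. AAKO was 12.6-fold higher when fasted and 10.3-fold lower after CL316243, a difference of differences of 7.02 ± 1.22 (SE; limma adjusted p = 4.1e-05).

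Txnip, the thioredoxin-interacting protein that restrains glucose uptake, ran the same way (chr3:96365340-96365399). Its fasted levels were 5.07 to 6.5 (median 5.73) in CTRL and 6.99 to 8.42 (median 7.59) in AAKO. Its CL316243 levels were 3.76 to 5.06 (median 4.05) in CTRL and 2.39 to 3.34 (median 2.88) in AAKO. No array of one genotype overlapped the other in either condition. The difference was 1.95 when fasted and -1.37 after CL316243, apart by 3.32 ± 0.36 (adjusted p = 3.64e-08), and both of its probes gave at least 2.79. Zbed5, a transposon-derived zinc finger gene, was 2.24-fold higher when fasted and 3.1-fold lower after CL316243.

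In the reverse orientation stood Ppp1r10, which encodes the nuclear phosphatase 1 subunit PNUTS (chr17:36069100-36069159). It ranged from 2.94 to 4.51 (median 3.91) in CTRL fasted and from 1.24 to 2.04 (median 1.70) in AAKO fasted. After CL316243 the ranges were 3.27 to 4.23 (median 3.67) in CTRL and 4.28 to 4.84 (median 4.54) in AAKO, again without overlap. AAKO was 4.58-fold lower when fasted and 1.76-fold higher after CL316243, with a difference of differences of -3.01 ± 0.28 (adjusted p = 3.62e-09). Its 6 probes disagreed in size, from -3.01 to -0.38, the last not called (limma adjusted p = 0.0744). On the other probes the CL316243 difference was 0.49 and 0.78, or only -0.04, 0.11 and 0.03. The opposed pattern was thus not seen on every probe.

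Zfp324, a zinc finger gene, was not well above background on any AAKO fasted array. It was therefore at least 2.02-fold lower there, and it was 1.96-fold higher in AAKO after CL316243. Srms, a non-receptor tyrosine kinase, was 3.2-fold lower when fasted and 1.76-fold higher after CL316243. Leaving out AAKO CL316243 replicate 5 or 6 or CTRL CL316243 replicate 1 or 2 ended its CL316243 call. In the authors' value table the difference of differences of these dim genes was nearer to 0, at -1.31 for Zfp324 and -1.18 for Srms, against fitted values of -3.99 and -2.49 here. Of all 750 opposed genes, 118 had no overlap of the genotypes' arrays in either condition (0.490% of genes tested). Across all genes tested, the arrays did not overlap for 21.2% when fasted, 11.3% after CL316243 and 4.54% in both.

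The fasted-only class was led upward by Ppp1r3g, a subunit that targets phosphatase 1 to glycogen, Fibin, a secreted protein first found in fin development, and Hsd3b1, a steroid dehydrogenase. Fibin is the clearest of them (chr2:110201122-110201181). It lay between -2.89 and -0.43 (median -2.55) in CTRL fasted and between 2.05 and 2.96 (median 2.35) in AAKO fasted. After CL316243 it lay between -3.93 and -2.87 (median -3.34) in CTRL and between -4.84 and -1.82 (median -3.09) in AAKO. AAKO fasted stood apart from the other 3 groups, whose arrays overlapped or lay close together. The gene was 24.7-fold higher in AAKO when fasted and 1.12-fold higher after CL316243, a difference of 4.47 ± 0.54 (adjusted p = 2.33e-07).

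Ppp1r3g was 61.2-fold higher when fasted, from -1.46 to 3.07 (median -0.40) in CTRL and from 5.13 to 6.99 (median 5.79) in AAKO. After CL316243 its ranges overlapped, -1.27 to 1.44 (median 0.14) in CTRL and -1.22 to 4.55 (median 1.55) in AAKO. Its difference of differences of 4.71 ± 1.25 (adjusted p = 0.00397) was called in wash batch 1 alone (adjusted p = 0.0292) and not in wash batch 2 alone (adjusted p = 0.177). Hsd3b1 differed by 4.03 when fasted and -0.02 after CL316243, and its 2 probes gave 4.06 and 1.56 for the difference between these.

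Downward, the class was led by Hdhd3, a haloacid dehalogenase-like hydrolase, Zfp40, a zinc finger gene, and Unc79, an accessory subunit of the NALCN sodium leak channel. Hdhd3 (chr4:62160156-62160215) lay between 0.18 and 2.63 (median 2.34) in CTRL fasted and between -2.09 and -1.20 (median -1.70) in AAKO fasted. After CL316243 it lay between 2.33 and 3.28 (median 2.76) in CTRL and between 2.39 and 2.86 (median 2.61) in AAKO. The AAKO fasted arrays were the lowest, and CTRL fasted replicate 2, at 0.18, lay between them and all others. AAKO was 13.0-fold lower when fasted and 1.16-fold lower after CL316243, apart by -3.49 ± 0.36 (adjusted p = 2.37e-08). Zfp40 and Unc79 were 8.1-fold and 9.61-fold lower when fasted, with CL316243 differences of 0.14 and -0.33. In the authors' value table their differences of differences were -1.56 and -1.76, against -3.16 and -2.94.

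Bhlha15, or MIST1, a transcription factor of secretory cells, led the genes that differed after CL316243 only (chr5:144955175-144955234). In the fasted groups it ranged from -4.63 to -3.10 (median -4.13) in CTRL and from -5.88 to -3.92 (median -4.63) in AAKO, which overlap. After CL316243 it ranged from -1.83 to -0.26 (median -0.91) in CTRL and from 0.83 to 3.48 (median 2.60) in AAKO. The CTRL CL316243 arrays all lay above the fasted arrays, and the AAKO CL316243 arrays above those. AAKO was 11.2-fold higher after CL316243, and the difference of differences was -4.23 ± 0.61 (adjusted p = 3.5e-06).

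Il33, an alarmin cytokine of the interleukin-1 family, separated AAKO CL316243 from everything else (chr19:30035101-30035160). It lay between -2.69 and -1.71 in CTRL fasted, -2.93 and -2.17 in AAKO fasted, and -2.32 and -1.85 in CTRL CL316243, with medians of -2.45, -2.51 and -2.08. In AAKO CL316243 it lay between -0.31 and 1.27 (median 1.00). It was 7.51-fold higher in AAKO after CL316243, with a fasted difference of -0.21 and a difference of differences of -3.12 ± 0.29 (adjusted p = 4.01e-09). Atp6v0a4, a subunit of the vacuolar proton pump, was 13.3-fold higher in AAKO after CL316243, with a fasted difference of 0.18.

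Among genes lower in AAKO after CL316243 only were Mycl, a transcription factor of the Myc family, the mitochondrial carrier Slc25a34, and Gprin3, named as a G protein-regulated inducer of neurite outgrowth. Mycl was 6.12-fold lower after CL316243, Slc25a34 3.68-fold and Gprin3 3.84-fold, and their fasted differences were -0.25, 0.45 and 0.20. The second probe of Slc25a34 gave a difference of differences of 0.20 against 2.33, and in wash batch 2 alone the call was lost (adjusted p = 0.0921).

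The shared effects include 6 named genes whose difference of differences had a 95% interval within a fold of 1.5. Tat, the tyrosine aminotransferase that feeds amino acid carbon into glucose production, was higher in AAKO in both conditions (chr8:112523207-112523266). It ranged from 7.88 to 9.03 (median 8.25) in CTRL fasted and from 9.37 to 9.62 (median 9.48) in AAKO fasted. After CL316243 it ranged from 6.84 to 7.35 (median 7.0) in CTRL and from 8.09 to 8.49 (median 8.28) in AAKO. The genotypes were separate in each condition, by 2.23-fold when fasted and 2.38-fold after CL316243. The difference of these was -0.10, with a 95% interval from -0.48 to 0.29.

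Krtap1-4, a keratin-associated protein gene, and Zfp949, a zinc finger gene, were likewise higher, by 2.39-fold and 2.36-fold when fasted and 2.5-fold and 2.19-fold after CL316243. Zfp949 was also higher in fed, untreated AAKO livers, by 1.1. Another probe of Zfp949 gave a called difference of differences of 0.54 (adjusted p = 0.00917), against 0.11. Abcb4, the canalicular transporter that moves phosphatidylcholine into bile, was 2.7-fold and 2.35-fold lower in AAKO, with an interval of -0.48 to 0.08 for the difference. Pllp, which encodes the membrane protein plasmolipin, was 3.64-fold and 3.57-fold lower, and Fam102a 3.16-fold and 2.8-fold.

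Other shared effects differed in size. Slc39a14, the zinc and iron importer ZIP14, was higher in AAKO by 13.3-fold when fasted and 2.19-fold after CL316243 (chr14:70703394-70703453). Its fasted levels were 2.77 to 5.47 (median 2.95) in CTRL and 6.45 to 7.47 (median 7.12) in AAKO. Its CL316243 levels were 4.37 to 4.86 (median 4.53) in CTRL and 5.14 to 5.86 (median 5.76) in AAKO. AAKO was above CTRL within each condition, and CTRL fasted replicate 2, at 5.47, was the CTRL fasted array nearest to AAKO. The fasted difference exceeded the other by 2.60 ± 0.38 (adjusted p = 4.84e-06). Map3k6, a stress-activated kinase, and Rasd2, a small G protein, were 17.6-fold and 21.2-fold higher when fasted, against 2.99-fold and 4.64-fold. The difference of differences of Map3k6 was not called in wash batch 2 alone (limma adjusted p = 0.225). That of Rasd2 was not called in wash batch 1 alone (limma adjusted p = 0.327).

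Bdh1, the mitochondrial enzyme that interconverts the 2 main ketone bodies, was lower in AAKO by 12.6-fold when fasted and 2.24-fold after CL316243 (chr16:31457378-31457437). It ranged from 4.33 to 5.73 (median 5.59) in CTRL fasted and from 0.92 to 2.84 (median 1.61) in AAKO fasted, and from 6.12 to 6.51 (median 6.28) and 4.77 to 5.42 (median 5.15) after CL316243. The genotypes did not overlap in either condition, and the difference of differences was -2.49 ± 0.35 (adjusted p = 1.95e-06). Spon2, an extracellular matrix protein, was 22.7-fold lower when fasted and 4.25-fold lower after CL316243.

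Inhbe, the activin E subunit made by hepatocytes, was 28.3-fold lower in AAKO when fasted and 5.64-fold lower after CL316243. Its levels were 2.25 to 3.97 (median 3.16) in CTRL fasted, -2.14 to -0.54 (median -2.01) in AAKO fasted, 4.22 to 4.92 (median 4.49) in CTRL CL316243 and 1.54 to 2.75 (median 1.86) in AAKO CL316243. The genotypes were separate in each condition. The difference of differences of Inhbe was called in wash batch 2 alone and not in wash batch 1 alone (limma adjusted p = 0.00333 and 0.0570). Of 6 activin and antagonist genes tested, Inhbe and Inhbc had a called difference of differences, both negative; without CTRL fasted replicate 2, 3 were negative and 1 positive.

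Larger after CL316243 were Cyp4a31 and Cyp4a10, which ω-hydroxylate fatty acids. Cyp4a31 ranged from 9.02 to 9.37 (median 9.31) in CTRL fasted, 7.30 to 8.22 (median 7.95) in AAKO fasted, 5.02 to 6.98 (median 6.28) in CTRL CL316243 and 2.09 to 4.03 (median 2.53) in AAKO CL316243. It was 2.54-fold lower in AAKO when fasted and 10.5-fold lower after CL316243, a difference of 2.04 ± 0.44 (adjusted p = 0.000616). Cyp4a10 was 3.24-fold and 9.17-fold lower, apart by 1.5 ± 0.45 (adjusted p = 0.0101), a call lost in each wash batch alone (adjusted p = 0.0899 and 0.0900). Its other probes gave 0.60 and 0.95, neither called (adjusted p = 0.534 and 0.0643), and the second probe of Cyp4a31 gave 1.18 (adjusted p = 0.0460) against 2.04. Cyp4a genes are close relatives, so signal shared between their probes cannot be told apart.

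Arrdc3, an arrestin-domain protein that controls β-adrenergic receptor traffic, was 1.94-fold lower when fasted and 6.02-fold lower after CL316243. Its fasted call was lost without CTRL fasted replicate 3 or 4 or AAKO fasted replicate 3, and its difference of differences in each wash batch alone. A second probe of Arrdc3 gave 1.54, not called (limma adjusted p = 0.0996). On that probe the fasted difference was only -0.15, against -0.96 on the probe used, and the CL316243 difference was -1.69. The genes higher in AAKO were Eif4ebp3, a translation repressor that binds eIF4E, at 2.38-fold and 6.26-fold, Plrg1, a spliceosome protein, at 1.29-fold and 2.31-fold, and Wfs1, the ER membrane protein wolframin, at 1.47-fold and 2.52-fold. The difference of differences of Eif4ebp3 was not called in wash batch 1 alone (limma adjusted p = 0.162). That of Wfs1 was not called in wash batch 2 alone (limma adjusted p = 0.0532).

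**Figure D3:**
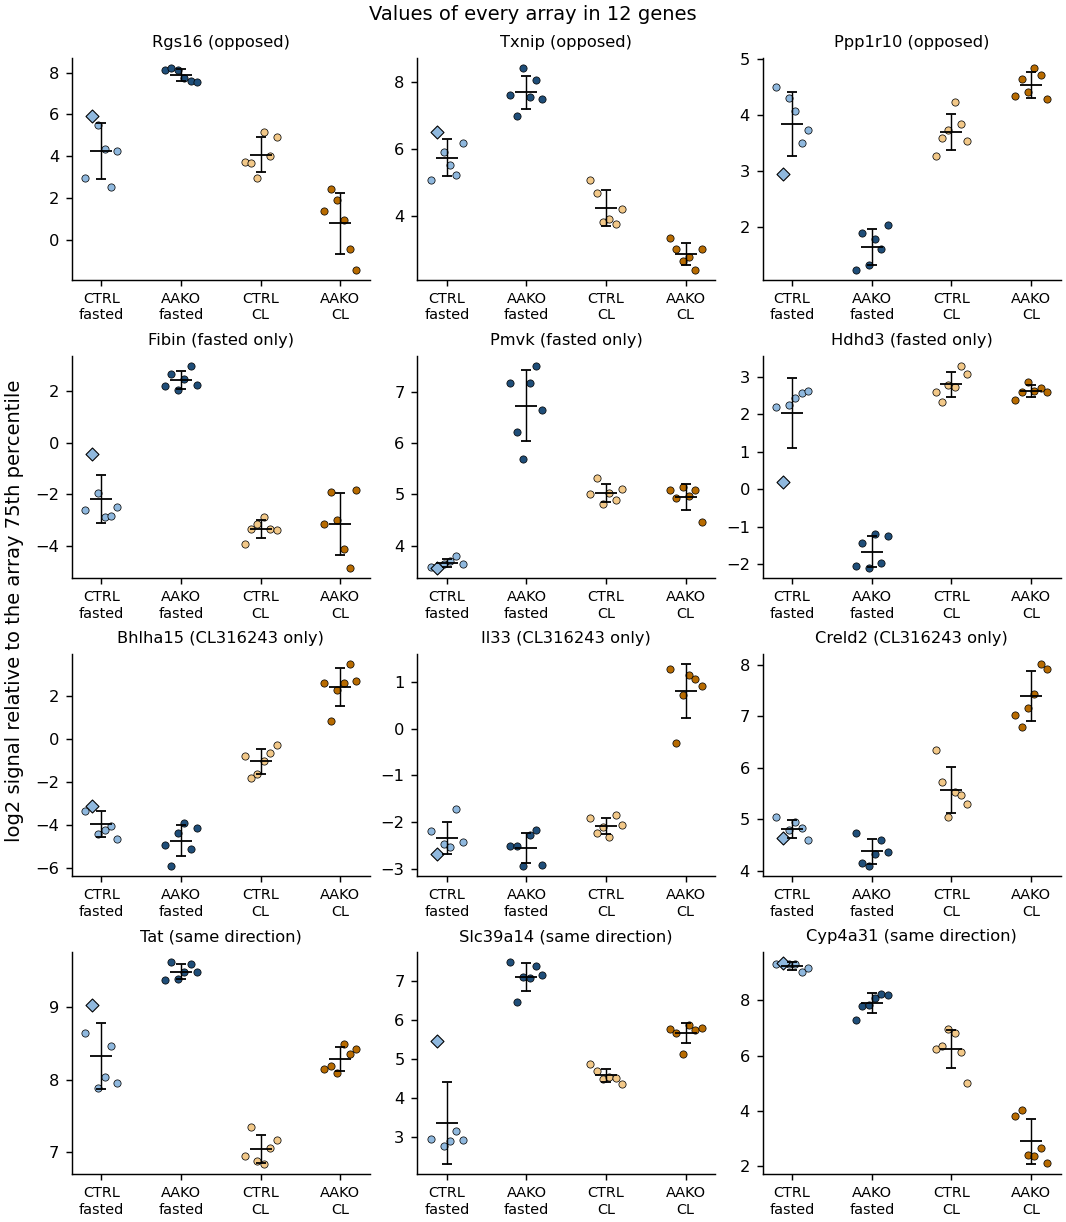
Every array's log2 signal, relative to the array's 75th percentile, for 12 genes in the 4 groups of 6 arrays; dots are arrays, the diamond is CTRL fasted replicate 2, and bars are the mean and SD. Rgs16 is higher in AAKO when fasted and lower after CL316243, Fibin differs when fasted (24.7-fold), Il33 after CL316243 (7.51-fold), and Tat in both (2.23-fold and 2.38-fold).

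Gene lists for pathways of this tissue were then read against these classes. Each is described by its counts and medians beside those of all genes tested, of which 49.2% were called when fasted, 24.6% after CL316243 and 31.8% for the difference of differences. Up to 4 members of each list were eligible as examples, ranked by absolute difference of differences. Each was called when fasted, after CL316243 or for the difference of differences, so the last was not called in every example. Members named beyond these were chosen after their values were seen.

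**Figure D4:**
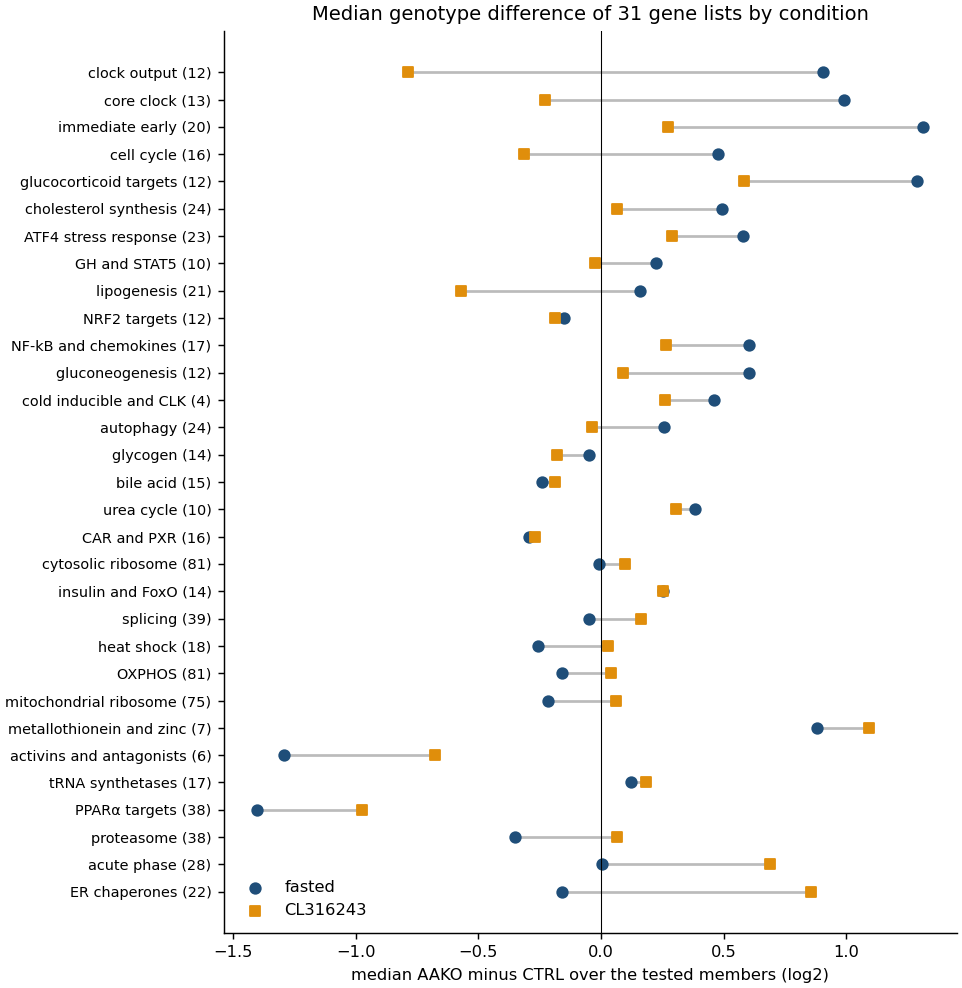
For 31 gene lists, with the number of genes tested in brackets, the median log2 AAKO minus CTRL difference over members when fasted (circles) and after CL316243 (squares), ordered from top to bottom by the median difference of differences. Clock output genes (0.90 and -0.79) have the widest positive gap and ER chaperones (-0.16 and 0.86) the widest negative gap.

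The circadian clock lists had the most positive medians. The core clock is a loop in which BMAL1 and CLOCK drive Per, Cry and Nr1d genes through E-boxes, and their products repress the drive in turn. Of 13 core clock genes, 9 were higher and 1 lower in AAKO when fasted, while the 3 called after CL316243 were lower. All 7 called differences of differences were positive, with a list median of 1.12. Of 12 clock output genes, 8 were higher and 2 lower when fasted, and 2 higher and 6 lower after CL316243. The 8 called differences of differences were positive, with a list median of 1.66. Both medians were positive in each wash batch, at 1.36 and 0.54 for the core clock and 1.78 and 1.16 for the output genes.

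Per3, a period gene, ranged from -2.96 to 0.06 (median -1.32) in CTRL fasted and from 0.17 to 1.32 (median 0.55) in AAKO fasted. After CL316243 it ranged from 0.77 to 1.30 (median 1.07) in CTRL and from -0.50 to 0.88 (median 0.09) in AAKO, which overlap slightly. CTRL fasted was the low group. The difference was 2.28 when fasted and -0.94 after CL316243, apart by 3.22 ± 0.46 (adjusted p = 2.81e-06). Its CL316243 call was lost without CTRL CL316243 replicate 2, 4 or 6 or AAKO CL316243 replicate 4, 5 or 6. Per2 lay between -0.22 and 1.21 (median 0.57) in CTRL fasted and between 1.79 and 2.52 (median 1.98) in AAKO fasted, but overlapped after CL316243, at 1.75 to 2.36 (median 2.13) and 1.39 to 2.16 (median 1.84). Its difference of differences was 1.88 ± 0.23 (adjusted p = 3.03e-07), although its second probe gave 0.18.

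Nr1d1, which encodes the clock repressor REV-ERBα, lay between -1.78 and 0.87 (median -0.53) in CTRL fasted and between 1.07 and 2.41 (median 1.53) in AAKO fasted. After CL316243 it lay between 0.81 and 1.59 (median 1.03) in CTRL and between 0.42 and 1.38 (median 0.87) in AAKO, overlapping. It was 4.55-fold higher in AAKO when fasted and differed by -0.28 after CL316243 (difference of differences 2.46 ± 0.54, adjusted p = 0.000668). Ciart, a repressor of the CLOCK and BMAL1 pair, was 10.6-fold higher when fasted and differed by 0.24 after CL316243. The transcription factors Clock, Npas2 and Arntl, which encodes BMAL1, differed by -0.25, -0.60 and 0.52 when fasted and -0.23, -0.34 and 0.22 after CL316243, and none of the 6 differences was called.

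Among output genes Wee1, the kinase that holds cells before mitosis, separated AAKO CL316243. It ranged from -1.26 to -0.26 (median -1.08) in CTRL fasted, -0.65 to 0.23 (median -0.14) in AAKO fasted, -0.90 to 0.37 (median 0.05) in CTRL CL316243 and -3.43 to -1.79 (median -2.74) in AAKO CL316243. It was 6.03-fold lower in AAKO after CL316243 without overlap, and 1.73-fold higher when fasted with overlap. The difference of differences was 3.38 ± 0.33 (adjusted p = 1.08e-08). Usp2, a deubiquitinase with strong daily rhythm, was 4.46-fold higher when fasted and differed by -0.80 after CL316243; it became an opposed gene without CTRL fasted replicate 2, AAKO CL316243 replicate 2 or AAKO CL316243 replicate 3. Mtnr1a, the melatonin receptor, had differences of -3.72 when fasted and -4.36 after CL316243, and the difference between them was not called (adjusted p = 0.272).

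**Figure D5:**
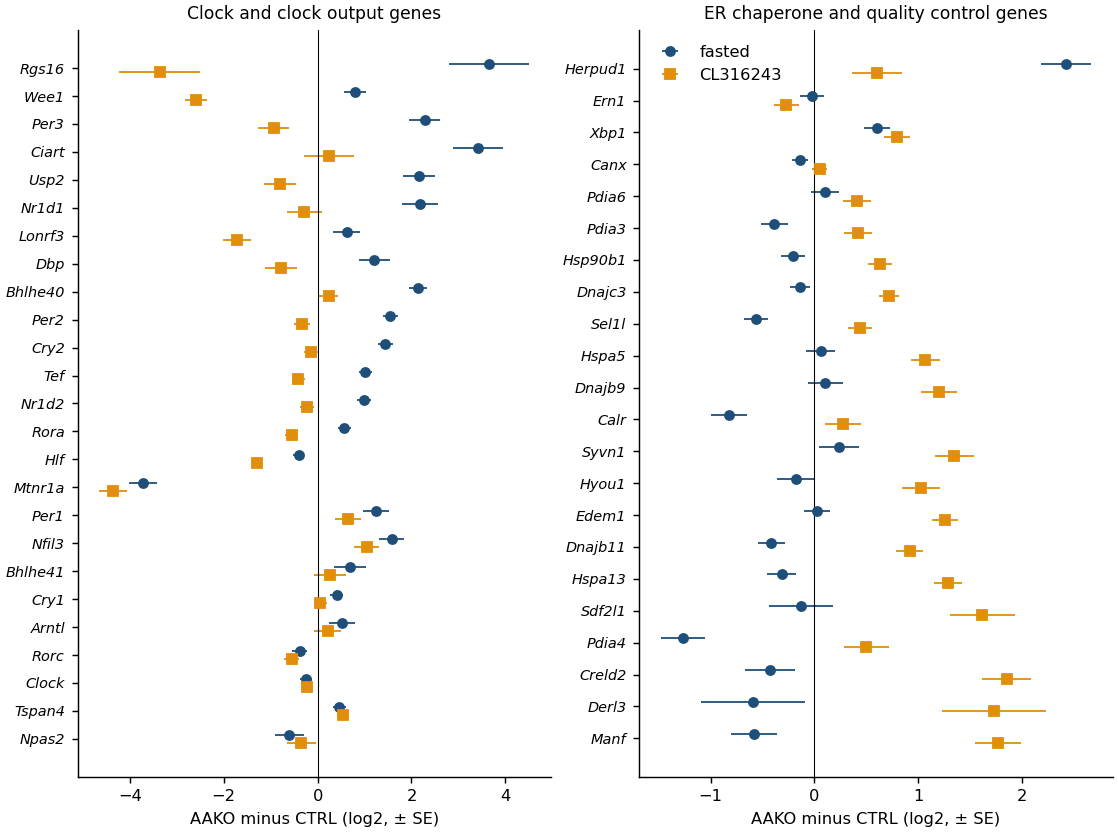
Log2 AAKO minus CTRL difference with its SE for each tested core clock and clock output gene (left) and each ER chaperone and quality control gene (right), when fasted (circles) and after CL316243 (squares), with 6 arrays in each of the 4 groups. Rgs16, Wee1 and Per3 lie on opposite sides of 0 in the 2 conditions, and most ER genes lie to the right of 0 after CL316243 and near it when fasted.

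Promoters of RefSeq genes (GRCm38.p6, 250 bases before to 50 after the start) were searched on both strands for the clock motifs CACGTG, the E-box, and TTATGTAA, the D-box. Of the genes tested, 13710 had a promoter in the table, and 1433 of these (10.5%) held an E-box. An E-box was present in 73 of 511 opposed genes (14.3%), 87 of 710 CL316243-only genes (12.3%), 246 of 2081 same-direction genes (11.8%), 316 of 2913 fasted-only genes (10.8%) and 452 of 4932 genes with nothing called (9.16%). It was present in 3 of 11 core clock and 5 of 10 output promoters, but also in 6 of 10 promoters of glucocorticoid targets, 3 of 6 of urea cycle genes, 7 of 18 of autophagy genes and 5 of 16 of immediate early genes. A D-box was present in 124 promoters of genes tested (0.904%) and in 1 of 11 core clock promoters, that of Per3, and 0 of 10 output promoters. It was present in 2 opposed (0.391%), 18 fasted-only (0.618%), 6 CL316243-only (0.845%) and 21 same-direction genes (1.01%). A match is a description of these letters and not a binding site. The stretches around the motif, in capitals, of 3 genes with called differences of differences are shown 5′ to 3′ in gene orientation.
Ciart, chr3:95882299-95882384, minus strand: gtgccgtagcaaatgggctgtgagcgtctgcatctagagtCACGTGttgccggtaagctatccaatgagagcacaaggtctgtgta
Tef, chr15:81802506-81802591, plus strand: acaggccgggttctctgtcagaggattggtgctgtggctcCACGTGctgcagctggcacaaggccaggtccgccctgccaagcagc
Per3, chr4:151044823-151044910, minus strand: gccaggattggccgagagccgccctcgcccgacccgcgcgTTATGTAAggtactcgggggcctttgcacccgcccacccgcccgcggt

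Ciart and Tef, a PAR-bZIP factor that binds D-boxes, carry E-boxes, and Tef differed by 1.02 when fasted and -0.41 after CL316243 (difference of differences 1.43 ± 0.20, adjusted p = 3.01e-06).

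Genes of the endoplasmic reticulum formed the opposite pattern. These chaperones and quality control factors fold secreted proteins and are induced when unfolded protein accumulates there. After CL316243 17 of 22 tested members were called, all higher in AAKO, against 24.6% of all genes. When fasted 2 were higher and 6 lower. Of 18 called differences of differences, 17 were negative, with a list median of -1.09 and medians of -1.22 and -0.84 in the 2 wash batches. By class, 11 of the 22 differed after CL316243 only, 4 were opposed, 3 fasted only and 1 shared.

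Creld2, an ER-resident protein induced by misfolding (chr15:88656997-88657056), ranged from 4.59 to 5.04 (median 4.81) in CTRL fasted and from 4.10 to 4.73 (median 4.34) in AAKO fasted. After CL316243 it ranged from 5.04 to 6.34 (median 5.49) in CTRL and from 6.79 to 8.01 (median 7.31) in AAKO. The genotypes overlapped when fasted and were separate after CL316243. The difference of differences was -2.28 ± 0.34 (adjusted p = 4.76e-06). Manf, a secreted ER stress-induced factor, was 3.4-fold higher in AAKO after CL316243, from 3.56 to 4.48 (median 3.71) in CTRL to 4.95 to 6.00 (median 5.58) in AAKO, without overlap. Its fasted difference of -0.58 lost its call without AAKO fasted replicate 3 or CTRL fasted replicate 1, 4 or 5.

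Derl3, a channel component for removing misfolded proteins, was 3.32-fold higher after CL316243, with a difference of differences of -2.32 ± 0.71 (adjusted p = 0.0119). Hspa5, the central chaperone BiP, differed by 0.06 when fasted and 1.07 after CL316243. Herpud1, which organises ER-associated degradation, was the exception in the list. It ranged from 4.36 to 6.70 (median 5.08) in CTRL fasted to 7.6 to 7.73 (median 7.70) in AAKO fasted, and from 5.42 to 6.15 (median 5.87) to 6.14 to 6.77 (median 6.35) after CL316243. It was 5.36-fold higher in AAKO when fasted and 1.52-fold higher after CL316243, a difference of 1.82 ± 0.34 (adjusted p = 0.000116). Without CTRL fasted replicate 2 or AAKO CL316243 replicate 3 it was called in both conditions.

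The ER stress response element (ERSE), CCAAT and CCACG separated by 9 bases, was searched in the same promoters after the list counts had been seen. It was present in 25 of 13710 genes tested (0.182%) and in 9 of the 19 ER genes with a promoter (47.4%). By class it was present in 7 of 710 CL316243-only genes (0.986%) and 3 of 2913 fasted-only genes (0.103%). It was present in 1 of 511 opposed genes (0.196%) and 1 of 2081 same-direction genes (0.0481%). These class counts include genes of the ER list, such as the 4 CL316243-only genes below. They are therefore not separate from the share of the ER genes. The stretches below, with the element in capitals on either strand, come from 4 ER genes that differed after CL316243 only and from Pdia6, a disulfide isomerase whose difference of differences was not called.
Derl3, chr10:75893202-75893300, plus strand: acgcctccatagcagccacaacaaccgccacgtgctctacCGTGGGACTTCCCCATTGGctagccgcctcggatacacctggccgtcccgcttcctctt
Creld2, chr15:88819480-88819578, plus strand: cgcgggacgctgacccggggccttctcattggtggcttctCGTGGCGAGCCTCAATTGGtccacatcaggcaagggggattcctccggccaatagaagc
Hspa5, chr2:34771985-34772083, plus strand: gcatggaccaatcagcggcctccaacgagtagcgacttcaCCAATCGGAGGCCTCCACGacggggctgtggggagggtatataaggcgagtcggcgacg
Syvn1, chr19:6046492-6046575, plus strand: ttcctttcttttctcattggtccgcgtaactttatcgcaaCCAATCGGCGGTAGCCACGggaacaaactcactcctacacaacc
Pdia6, chr12:17266451-17266549, plus strand: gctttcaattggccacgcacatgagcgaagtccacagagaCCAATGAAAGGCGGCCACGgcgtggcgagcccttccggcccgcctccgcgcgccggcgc

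Syvn1, the ubiquitin ligase HRD1 of ER-associated degradation, differed by 0.23 when fasted and 1.35 after CL316243, Pdia6 by 0.10 and 0.41.

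Stress genes outside the ER followed other patterns. Of 23 targets of ATF4, the transcription factor of amino acid shortage, 12 were higher and 2 lower when fasted and 8 higher and 2 lower after CL316243, with 8 positive and 4 negative differences of differences. Ddit4, an inhibitor of mTOR signalling, lay between 2.81 and 7.58 (median 3.66) in CTRL fasted and between 8.67 and 8.86 (median 8.72) in AAKO fasted. With CL316243 it lay between 1.86 and 2.73 (median 2.38) in CTRL and between 2.50 and 4.46 (median 3.92) in AAKO. AAKO fasted was above all other arrays, and CTRL fasted spread widely. It was 21.3-fold higher when fasted and 2.64-fold after CL316243, apart by 3.02 ± 0.67 (adjusted p = 0.000788). Leaving out AAKO CL316243 replicate 1, 2 or 3 or CTRL CL316243 replicate 1 ended its CL316243 call.

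Slc7a1, a cationic amino acid transporter, was 4.45-fold higher when fasted and differed by 0.44 after CL316243. Among 18 heat shock genes, 6 of the 7 called differences of differences were negative, such as that of Hspa8, the constitutive cytosolic chaperone (-0.68 when fasted and 0.21 after CL316243), and Hspa1a, an inducible chaperone, was positive (3.32 and 1.09). The call of Hspa8 as fasted only was lost without AAKO CL316243 replicate 1, and the CL316243 call of Hspa1a without AAKO CL316243 replicate 2, 3 or 6 or CTRL CL316243 replicate 2 or 4. Of 12 NRF2 antioxidant targets 4 were positive and 3 negative, or 6 and 5 without CTRL fasted replicate 2, led by Gclc, the catalytic subunit of glutathione synthesis, at -0.23 when fasted and -1.68 after CL316243. Without CTRL fasted replicate 2 the fasted difference of Gclc was called too.

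PPARα targets, which carry fatty acid oxidation and ketone synthesis, showed the largest shared genotype effect among the lists. Of 38 tested, 32 were lower and 3 higher in AAKO when fasted, and the 34 called after CL316243 were lower. The list medians were -1.40 when fasted and -0.97 after CL316243. In 31 genes the direction was the same, and for 19 of these the sizes differed. The difference of differences was negative in 17 genes and positive in 6, with a list median of -0.39. The mean log2 level of the 38 genes on an array ranged from 5.32 to 6.13 in CTRL fasted, 3.93 to 4.78 in AAKO fasted, 4.57 to 5.02 in CTRL CL316243 and 3.29 to 3.48 in AAKO CL316243.

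Vnn1, a pantetheinase strongly driven by PPARα, ranged from 2.29 to 3.93 (median 3.36) in CTRL fasted, -1.93 to -0.98 (median -1.52) in AAKO fasted, 1.42 to 2.42 (median 1.88) in CTRL CL316243 and -0.91 to -0.10 (median -0.51) in AAKO CL316243. It was 26.2-fold lower in AAKO when fasted and 5.57-fold lower after CL316243, apart by -2.23 ± 0.34 (adjusted p = 7.27e-06). Ehhadh, the peroxisomal bifunctional enzyme of β-oxidation, was 11.9-fold and 2.4-fold lower (-2.30 ± 0.34, adjusted p = 4.57e-06). In both genes the AAKO arrays lay below all CTRL arrays of the same condition. Fgf21, a fasting hormone of the liver, had the largest shared decrease of the list, -5.47 and -4.59, and the difference between these was not called (adjusted p = 0.467).

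Angptl4, a secreted inhibitor of lipoprotein lipase, went against its list. It ranged from 7.21 to 7.90 (median 7.49) in CTRL fasted and from 8.22 to 8.44 (median 8.34) in AAKO fasted, and from 6.35 to 7.2 (median 6.97) and 5.01 to 5.60 (median 5.47) after CL316243. AAKO was the higher genotype when fasted and the lower after CL316243, without overlap in either. The fasted difference was 0.83 and the CL316243 difference -1.55, apart by 2.39 ± 0.33 (adjusted p = 2.07e-06). The other opposed member, Mlycd, which degrades malonyl-CoA, differed by 0.51 and -0.31. Fabp1, the liver fatty acid binding protein, was lower when fasted (-1.45) and differed by -0.17 after CL316243.

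Fatty acid synthesis genes divided by condition. Of 21 lipogenic genes, 7 were higher and 7 lower when fasted, while the 12 called after CL316243 were lower, and the difference of differences was positive in 8 and negative in 1 (0 without CTRL fasted replicate 2). Acly, which makes cytosolic acetyl-CoA from citrate, lay between 3.77 and 4.39 (median 4.15) in CTRL fasted and between 4.85 and 5.81 (median 5.40) in AAKO fasted. With CL316243 it lay between 6.19 and 7.27 (median 6.75) in CTRL and between 4.83 and 5.53 (median 5.13) in AAKO. The 2 AAKO groups covered nearly the same range, and the CTRL groups lay below it when fasted and above it after CL316243. The difference was 1.22 when fasted and -1.53 after CL316243, apart by 2.75 ± 0.28 (adjusted p = 1.73e-08).

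Pklr, the liver pyruvate kinase, was 1.8-fold higher when fasted, with overlapping arrays, and 2.32-fold lower after CL316243, without overlap. Fasn, the fatty acid synthase, and Acss2, which activates acetate, were opposed too, at 0.74 and -0.72 and at 0.71 and -0.57; they complete the opposed members of the list. Thrsp, a lipogenic regulator also called Spot14, was 4.56-fold higher in AAKO when fasted and differed by 0.01 after CL316243. Scd1, a fatty acid desaturase, and Srebf1, the master factor of lipogenesis, had no called difference (0.12 and 0.38 when fasted, 0.21 and -0.04 after CL316243).

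Cholesterol synthesis genes were higher in AAKO mainly when fasted. Of 24 tested, 12 were higher and 4 lower when fasted and 5 higher and 2 lower after CL316243, and 8 were fasted only. The difference of differences was positive in 10 and negative in 3, or negative in 5 without CTRL fasted replicate 2. Pmvk, the phosphomevalonate kinase, ranged from 3.57 to 3.80 (median 3.64) in CTRL fasted and from 5.68 to 7.50 (median 6.91) in AAKO fasted. After CL316243 it ranged from 4.82 to 5.31 (median 5.02) in CTRL and from 4.46 to 5.14 (median 5.03) in AAKO. The CTRL fasted arrays were tightly grouped below all others and the AAKO fasted arrays above. It was 8.44-fold higher in AAKO when fasted and 1.03-fold lower after CL316243, apart by 3.12 ± 0.30 (adjusted p = 9.48e-09).

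Mvk, mevalonate kinase, was 4.85-fold higher when fasted and differed by 0.43 after CL316243. Cyp51, the lanosterol demethylase, and Fdps, the farnesyl diphosphate synthase, were 2.91-fold and 3.37-fold higher when fasted, with CL316243 differences of -0.05 and 0.19. Hmgcs1, which acts early in the pathway, was lower when fasted, at -1.13, and differed by -0.19 after CL316243.

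Other metabolic lists were mixed in their differences of differences. Of 12 gluconeogenesis genes, 6 were higher and 1 lower in AAKO when fasted, and the 4 called after CL316243 were higher. Their mean level per array ranged from 6.72 to 7.14 in CTRL fasted and from 7.54 to 7.69 in AAKO fasted. After CL316243 it ranged from 6.44 to 6.67 in CTRL and from 6.51 to 7.03 in AAKO. The difference of differences was positive in 4 and negative in 1. Got1, of this list, differed by 1.90 when fasted and 0.88 after CL316243. Pcx, pyruvate carboxylase, which opens the pathway, ranged from 7.06 to 7.34 (median 7.11) in CTRL fasted and from 6.27 to 6.53 (median 6.45) in AAKO fasted, and from 6.59 to 6.92 (median 6.74) and 6.94 to 7.22 (median 7.12) after CL316243. AAKO was lower in the first and higher in the second, without overlap, at -0.72 and 0.34 (difference of differences -1.06 ± 0.11, adjusted p = 1.44e-08). Ppargc1a, a coactivator of fasting genes, was 1.94-fold higher when fasted and differed by -0.08 after CL316243. Pck1, the phosphoenolpyruvate carboxykinase, differed by 0.42 and 0.32, and G6pc, the glucose-6-phosphatase, by 0.78 and -0.79; none of the 4 was called. The difference of differences of G6pc, 1.57, was called (adjusted p = 0.0296), but not without AAKO CL316243 replicate 6 or CTRL CL316243 replicate 4.

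Of 15 bile acid genes 4 were positive and 3 negative. Baat, which conjugates bile acids to taurine and glycine, lay between 2.41 and 3.27 (median 2.98) in CTRL fasted and between 1.55 and 2.13 (median 1.89) in AAKO fasted, and between 2.39 and 2.79 (median 2.73) and 3.01 and 3.41 (median 3.25) after CL316243. It was thus opposed without overlap (difference of differences -1.61 ± 0.15, adjusted p = 7.36e-09). Cyp7a1, the rate-limiting enzyme of bile acid synthesis, was 3.39-fold lower in AAKO after CL316243 and differed by 0.32 when fasted. Its difference of differences was 2.08 over all arrays, 0.85 in wash batch 1 and 3.49 in wash batch 2. Klb, the coreceptor for FGF21, was 2.04-fold higher when fasted and differed by -0.07 after CL316243.

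In the urea cycle list 7 of 10 genes had the same direction in both conditions, such as Cps1, the entry enzyme, at 0.53 and 0.69, and the 4 called differences of differences were 2 of each sign. Of 16 CAR and PXR genes, which handle foreign compounds, 1 was positive and 2 negative. Of 14 glycogen genes the 2 called were positive, Ppp1r3g and Gys2, the liver glycogen synthase (0.48 and -0.41); the fasted difference of Gys2 was called on leaving out any 1 of AAKO fasted replicate 2, CTRL fasted replicate 2 and AAKO CL316243 replicates 1 and 6.

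Many hormone and signal response genes were higher in AAKO when fasted. Immediate early genes are transcription factors and phosphatases switched on within minutes of a signal. Of 20 tested, 16 were higher in AAKO when fasted, all those called, and 7 were higher and 4 lower after CL316243. The 11 called differences of differences were positive, with a list median of 0.82. Egr1 ranged from -0.20 to 1.04 (median 0.44) in CTRL fasted and from 2.08 to 3.69 (median 2.28) in AAKO fasted, and from 1.16 to 4.74 (median 3.99) and 0.66 to 2.01 (median 1.33) after CL316243. The fasted ranges were separate and the CL316243 ranges overlapped. The difference was 2.11 and -1.90, apart by 4.01 ± 0.70 (adjusted p = 4.56e-05).

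Maff, a small bZIP factor, was 5.2-fold higher when fasted and 1.85-fold lower after CL316243, and the second call was lost without CTRL CL316243 replicate 2. Klf10, a Krüppel-like factor, was 2.72-fold higher and 2.47-fold lower. Jun, Junb and Fosl2, subunits of AP-1, were higher in both conditions, at 1.38, 1.14 and 1.04 when fasted and 1.46, 0.99 and 0.90 after CL316243, and none of these 3 had a called difference between conditions.

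Of 12 glucocorticoid targets, 11 were higher when fasted, and after CL316243 1 was higher and 1 lower. The 5 called differences of differences were positive, but the list median of 0.75 was 1.25 in wash batch 1 and -0.02 in wash batch 2. Dusp1, a phosphatase that inactivates MAP kinases, and Sgk1, a kinase induced by steroids, were 4.95-fold and 4.66-fold higher when fasted, with CL316243 differences of 0.61 and 0.56. Without CTRL fasted replicate 2 the CL316243 difference of Sgk1 was called as well.

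In the insulin and FoxO list 5 differences of differences were positive and 4 negative. Sesn1, a FoxO target that restrains mTOR, ranged from 1.77 to 4.68 (median 2.02) in CTRL fasted and from 5.87 to 6.46 (median 6.11) in AAKO fasted, and from 1.83 to 2.07 (median 1.95) and 1.28 to 2.58 (median 1.83) after CL316243. AAKO fasted stood alone, 13.0-fold above CTRL, and the difference after CL316243 was -0.06 (difference of differences 3.76 ± 0.40, adjusted p = 3.3e-08). Foxo1, the FoxO factor of fasting, was 2.35-fold higher when fasted and differed by -0.40 after CL316243, which was called without CTRL fasted replicate 2. Of 10 growth hormone and STAT5 genes the 2 called were positive, Jak2 and Stat5b, the receptor's kinase and its transcription factor. Their fasted differences were 0.32 and 0.33. Stat5b lost its class without AAKO CL316243 replicate 6 or AAKO fasted replicate 1 or 2. Second probes of Jak2 and Stat5b gave differences of differences of 0.53 and -0.05, neither called (limma adjusted p = 0.0706 and 0.939). Of 16 cell cycle genes the 10 called differences of differences were positive, with a list median of 0.75 (0.35 with normexp), such as Mcm3, a subunit of the replication helicase (0.74 and -0.49), and Ccne1, cyclin E1 (1.87 and 0.53).

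Many subunits of large complexes were lower in AAKO when fasted, by small amounts. The proteasome degrades tagged proteins: of 38 subunits and assembly factors tested, 32 were called when fasted, all lower, against 27.3% of all genes lower. After CL316243 3 were higher and 1 lower. The 29 called differences of differences were negative, with a list median of -0.45, and 26 genes were fasted only. Psma1, a core particle subunit, lay between 4.91 and 5.23 (median 4.95) in CTRL fasted and between 4.10 and 4.21 (median 4.20) in AAKO fasted. With CL316243 it lay between 5.05 and 5.26 (median 5.17) in CTRL and between 5.09 and 5.38 (median 5.28) in AAKO. AAKO fasted was alone below the rest, by 1.77-fold, with a difference of differences of -0.93 ± 0.09 (adjusted p = 7.98e-09).

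Of 75 mitochondrial ribosomal proteins 45 were lower and 11 higher when fasted, 14 higher and 1 lower after CL316243, and 46 differences of differences were negative against 4 positive. Mrps22 and Mrpl35 were 1.89-fold and 2.62-fold lower when fasted, with CL316243 differences of 0.00 and -0.01. Of 81 oxidative phosphorylation subunits 40 were lower and 1 higher when fasted, 4 were higher after CL316243, and the 35 called differences of differences were negative. Cox6b2, a cytochrome oxidase subunit, was 2.16-fold lower when fasted and Ndufs8, of complex I, 1.32-fold. Of 81 cytosolic ribosomal proteins, 2 were positive and 11 negative, with a list median of -0.10 that was 0.00 under quantile normalisation. The medians of the proteasome, mitochondrial ribosome and oxidative phosphorylation lists stayed negative under the 4 other scalings tried, between -0.41 and -0.12.

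Splicing factors and tRNA synthetases leaned the other way after CL316243. Of 39 splicing factors 18 were higher and 1 lower in AAKO after CL316243, against 10 higher and 13 lower when fasted, and 13 of the 15 called differences of differences were negative. Srsf2, a serine and arginine-rich splicing factor, differed by -0.46 when fasted and 0.59 after CL316243. Its second probe gave a difference of differences of -0.12 against -1.05. For Hnrnpa1, also of this list, the probe used gave -0.93. Its other probes gave 1.11 and 1.19, called in the other direction (limma adjusted p = 2.2e-05 and 2.8e-06). Of 17 tRNA synthetases the 9 called after CL316243 were higher, and 8 differences of differences were negative and 1 positive. Lars, for leucine, was 1.86-fold lower when fasted and 1.21-fold higher after CL316243, the second call being lost without CTRL CL316243 replicate 4, and Wars, for tryptophan, was 2.01-fold higher after CL316243. Of 24 autophagy genes 6 were positive and 3 negative, such as Gabarapl1, an autophagosome protein (0.82 and -0.25), and Ulk1, the starting kinase (0.71 and -0.22), whose class was lost without CTRL CL316243 replicate 1.

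The inflammatory lists did not move as a block over both conditions. Acute phase genes are secreted by hepatocytes in response to interleukin-6 and interleukin-1. Of 28 tested, 11 were called after CL316243, all higher in AAKO, against 13.0% of all genes higher, with a list median of 0.69. When fasted 5 were higher and 3 lower, with a list median of 0.01. There were 7 negative and 2 positive called differences of differences. Crp, C-reactive protein, differed by -0.56 when fasted and 1.13 after CL316243 (difference of differences -1.70 ± 0.27, adjusted p = 1.58e-05). Serpina3n, a protease inhibitor, was 5.29-fold higher after CL316243 and differed by 0.40 when fasted, and was called when fasted without CTRL fasted replicate 5. The near-identical serum amyloid genes Saa1 and Saa2, whose probes may share signal, differed by 0.90 and 0.85 when fasted and 1.43 and 1.25 after CL316243, with standard errors of the difference between conditions of 1.42 and 1.41, and nothing was called.

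Of 17 NF-κB and chemokine genes 6 were positive and 2 negative. Il1b, interleukin-1β, ranged from -1.96 to -0.43 (median -0.72) in CTRL fasted and from -2.54 to -0.94 (median -2.05) in AAKO fasted, and from -2.90 to -1.56 (median -2.45) and -0.54 to 0.43 (median -0.20) after CL316243. The genotypes overlapped when fasted and were separate after CL316243. It was 2.12-fold lower and 4.68-fold higher, apart by -3.31 ± 0.42 (adjusted p = 5.64e-07). Nfkbia, the inhibitor of NF-κB, was higher when fasted (0.98 against -0.43). Cell markers were read beside these genes. Of 9 neutrophil markers 7 were higher in AAKO when fasted, none was called after CL316243 or for the difference of differences in limma, and at an unadjusted p under 0.05 these counts were 1 and 3, all higher (2 were called without CTRL fasted replicate 2). Their mean per array ranged from -2.60 to 1.74 in CTRL fasted, -0.27 to 2.25 in AAKO fasted, -2.90 to -0.73 in CTRL CL316243 and -1.34 to -0.26 in AAKO CL316243.

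Of 10 Kupffer cell markers 2 were higher when fasted and the difference of differences was called in none by limma (0 at an unadjusted p under 0.05), with a median of -0.74 in wash batch 1 and 1.20 in wash batch 2. Their mean per array ranged from 0.91 to 2.81 in CTRL fasted, 0.62 to 2.81 in AAKO fasted, 0.35 to 2.09 in CTRL CL316243 and 1.55 to 2.19 in AAKO CL316243. Markers of sinusoidal endothelium and stellate cells changed sign between batches too, at -0.44 and 0.54 and at -0.40 and 0.70. For T and NK cells (5 markers tested), endothelium (7) and stellate cells (7) limma called 0 differences of differences, against 1, 1 and 2 at an unadjusted p under 0.05. Without CTRL fasted replicate 2, 1 endothelial and 2 stellate differences of differences were called, all positive. For B cells (4) and adipocytes (6) 1 was positive, for cholangiocytes (6) and pancreas (2) 1 was negative, and for erythroid cells (4) 2 were negative (1 without CTRL fasted replicate 2). The part of these cells in the inflammatory differences was not tested. Of 7 metallothionein and zinc genes, Slc30a10, a manganese exporter, was 5.54-fold lower when fasted and differed by -0.49 after CL316243, and Slc30a1, a zinc exporter, was opposed at 1.07 and -0.58. Mt1 and Mt2, the zinc-binding metallothioneins, were 4.94-fold and 8.74-fold higher after CL316243 and differed by 0.29 and 0.88 when fasted, without a called difference between conditions (adjusted p = 0.113 and 0.212). The 2 probes of Mt1 disagreed, the second giving 4.81 when fasted and 4.50 after CL316243. Of 4 cold-inducible and CLK genes, Cirbp, a cold-inducible RNA-binding protein, was called, at 0.83 and -0.41, and lost its class without AAKO CL316243 replicate 1; of its 3 probes 1 gave -0.13 against 1.24.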

How the data were processed

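Liver RNA was hybridised to Agilent 1-colour arrays, 1 array per sample, so p-values measure the spread between these samples. The intensities are the background-subtracted processed signals the authors deposited, read from the scans, per the file headers, by version 10.10.1.1 of Agilent's Feature Extraction. The authors' deposited value table holds log2 values of the same arrays; limma is named in the submitters' processing notes. Its columns each matched their own array, values within a group were identical once sorted, column medians were 6.88 to 7.01, and how it was centred is not given in the sources used here.

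Outlier spots (0.127%) and control spots were left out, spots of a probe were averaged, and log2 signals were expressed relative to the array's 75th percentile. Each of 37061 genes was represented by its brightest probe, and 24097 genes well above background on at least 5 of 6 arrays of a group were tested. Symbols were updated through RefSeq accessions for 32994 probes, and probe coordinates are mm9 as in the files. limma 3.58.1 in R 4.3.3 fitted 6 group means and wash batch to all 36 arrays, so that all groups share 1 estimate of the spread, with Benjamini-Hochberg adjustment and a threshold of 0.05. The scripts were tested on simulated data. The number of arrays limits the precision.

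Named genes are the first 3 by size in each class and direction with a real symbol, signal in at least 3 of 4 groups, genotypes' arrays separate in the defining conditions, the same class under quantile, median and normexp processing, and probes that agree in sign. The members, lists and tests were chosen with earlier results of these data known. Alternatives covered scaling, background correction, filters, batch and slide terms, probes and leaving out each array, and the ER stress element search was added after seeing the data.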

Additional observations from a re-analysis of the deposited data

Results flagged for a closer look

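The genotype difference itself differed between conditions for 7666 genes, by the limma test of the difference of differences. Among the named genes, those more positive when fasted were Rgs16 (7.02), Ppp1r3g (4.71), Fibin (4.47), Hsd3b1 (4.06), Txnip (3.32), Zbed5 (2.80), Slc39a14 (2.60), Map3k6 (2.56), Mycl (2.36), Slc25a34 (2.33), Rasd2 (2.19), Gprin3 (2.14), Cyp4a31 (2.04), Arrdc3 (1.63) and Cyp4a10 (1.5). Those more negative when fasted were Bhlha15 (-4.23), Atp6v0a4 (-3.55), Hdhd3 (-3.49), Zfp40 (-3.16), Il33 (-3.12), Ppp1r10 (-3.01), Unc79 (-2.94), Bdh1 (-2.49), Srms (-2.49), Spon2 (-2.41), Inhbe (-2.33), Eif4ebp3 (-1.40), Plrg1 (-0.84) and Wfs1 (-0.78). The fitted value of Zfp324 was -3.99, but its probe was not well above background on any AAKO fasted array, so its size is known only as a bound.

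Among 144 sets of 6 arrays, 15 had an array far from the other 5 by Dixon's criterion, where chance marks about 1 set in 20. CTRL fasted replicate 2 accounted for 7. It was high for Ppp1r3g (3.07 against -1.46 to 0.22), Slc39a14 (5.47 against 2.77 to 3.16) and Map3k6 (3.67 against -0.19 to 0.65). It was low for Hdhd3 (0.18 against 2.18 to 2.63), Zfp40 (-3.21 against -2.10 to -1.76), Bdh1 (4.33 against 5.46 to 5.73) and Spon2 (-0.02 against 1.41 to 2.17). In each of these 7 genes it lay on the side of the AAKO fasted arrays.

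AAKO CL316243 replicate 2 was apart for Il33 (-0.31 against 0.72 to 1.27), Hsd3b1 (-1.72 against -3.97 to -3.16) and Eif4ebp3 (7.80 against 6.58 to 7.03). AAKO CL316243 replicate 3 was low for Slc39a14 (5.14 against 5.66 to 5.86), and CTRL CL316243 replicate 2 for Zfp324 (-3.38 against -2.89 to -2.63). CTRL fasted replicate 3 was low for Wfs1 (0.77 against 1.12 to 1.25), AAKO fasted replicate 3 low for Arrdc3 (0.64 against 1.48 to 1.85), and AAKO fasted replicate 6 high for Inhbe (-0.54 against -2.14 to -1.75).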

How the results depend on the processing

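Leaving out each array in turn gave 11068 to 12457 genes called when fasted, 4877 to 6314 after CL316243 and 6890 to 8664 for the difference of differences. It gave 578 to 909 opposed, 4183 to 5229 fasted-only, 859 to 1132 CL316243-only and 2698 to 3369 same-direction genes. Wash batch 1 alone, with fewer arrays, gave 2968 genes after CL316243, 4709 for the difference of differences, 235 opposed, 488 CL316243-only and 1479 same-direction. Wash batch 2 alone gave 7782 genes when fasted, 1514 after CL316243, 3038 for the difference of differences, 142 opposed, 2226 fasted-only, 335 CL316243-only and 659 same-direction. At an adjusted p under 0.01 the counts were 3660 after CL316243, 5099 for the difference of differences, 330 opposed, 670 CL316243-only and 1818 same-direction. Counting every probe by itself gave 18275, 11734, 1128 opposed and 7447 fasted-only probes. The other scalings, filters and batch or slide terms kept the counts of these contrasts and classes within 1.5 times; the difference of differences was called for 7890 genes with normexp, 7531 with quantile, 6958 with median centring, 7485 in the authors' value table and 6765 with slide as a fixed factor. Genes larger after CL316243 among those of 1 direction numbered 101, 64 with no filter on dim probes, 26 at an adjusted p under 0.01, and 8 and 4 in wash batches 1 and 2 alone. With the replicate number as a block it was called for 7535; same-numbered samples correlated between -0.17 and 0.25, so the numbers were not taken to pair the samples. Reversed were the difference of differences of Inhba with normexp (0.029, against -0.72) and of Phka2 (0.047, against -0.25) and Igfals (0.00027, against -0.25) in wash batch 2 alone, none of them called under either; the cause was not tested. Dim probes limit the size of Zfp324, Zfp40, Unc79, Srms and Hsd3b1, the last at 2.48 in the authors' value table against 4.06. Other named genes were dim in some groups too, which limits their sizes likewise. Mean levels of Atp6v0a4 were -4.05 in CTRL fasted, -3.87 in AAKO fasted and -4.44 in CTRL CL316243. Those of Rasd2 were -4.12 in CTRL fasted and -4.14 in CTRL CL316243, and that of Bhlha15 was -4.71 in AAKO fasted.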
